A study of Caenorhabditis elegans with 2 samples.

Results

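The peaks described here are those of the tagged protein ZTF-25, named as a zinc finger transcription factor, that lie on the X chromosome away from transfer RNA (tRNA) genes. They were chosen by signal: the 5000 peaks with the highest signal were taken from the 104189 peaks of the ranked comparison of both libraries, and those on X whose summit was more than 200 bp from any annotated tRNA gene were kept. This left 558 X peaks, or 12.15% (95% interval 11.2 to 13.1%) of the 4594 peaks away from tRNA genes. The same rule kept 4036 peaks on the 5 autosomes, and these stand beside the X peaks throughout. A further 193 X peaks and 213 autosomal peaks were left out because they were at tRNA genes. The signal, the rank, the irreproducible discovery rate (IDR) and the list a peak is in come from the libraries that chose the peaks, so their values are given as a description with no test.

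Chromatin immunoprecipitation with an antibody against GFP, followed by sequencing, was carried out with whole Caenorhabditis elegans, young adults of strain RW12287 aged 63 hours. In this strain the ztf-25 gene on chromosome V carries a TY1, EGFP and 3xFLAG insertion made by CRISPR, and the worms were starved as L1 larvae after bleaching. Both samples are biological replicates, 1 and 2, of 1 group, and the labels name no second condition. Worms without the tag, or with GFP alone, were not analysed here, so the values have no background from such worms. The authors derived the peak lists with a control file, which was not analysed here either. The files give no read counts, so the depth of the libraries is unknown.

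Worms regulate the X chromosome apart from the autosomes. In hermaphrodites, which carry a pair of X chromosomes, a dosage compensation complex binds along both and lowers their expression, and it enters X at recruitment elements whose shared motif holds the letters GCGCAGGG. The X chromosome is also known for carrying few genes that are active in the germline. Transfer RNA genes are read by RNA polymerase III from promoter elements inside the gene, the A box and the B box, and many of them lie on X.

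The 6 strongest X peaks lay in repeated DNA, each more than 1000 bp from the nearest protein-coding 5′ end. The windows of 50 bp to either side of the summits of the 6 X peaks with the highest signal are shown because they carry the top of the ranking, read from the RefSeq sequence of ce11. Ranks are among all 5000 peaks. In the sequence at rank 44, capitals mark every base of runs of at least 3 alternating TTC and GAA units spaced by 2 bases, the form of a heat shock element.
Rank 1, chrX:15811060-15811160, plus strand: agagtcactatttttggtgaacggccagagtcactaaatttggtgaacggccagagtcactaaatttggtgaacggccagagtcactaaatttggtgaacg
Rank 2, chrX:11785773-11785873, plus strand: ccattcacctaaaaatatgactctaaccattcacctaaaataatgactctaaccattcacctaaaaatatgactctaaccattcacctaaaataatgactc
Rank 3, chrX:15808142-15808242, plus strand: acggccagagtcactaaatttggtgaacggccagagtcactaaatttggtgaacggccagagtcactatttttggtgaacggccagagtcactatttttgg
Rank 5, chrX:5056881-5056981, plus strand: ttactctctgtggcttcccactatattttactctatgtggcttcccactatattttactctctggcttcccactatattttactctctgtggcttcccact
Rank 12, chrX:293387-293487, plus strand: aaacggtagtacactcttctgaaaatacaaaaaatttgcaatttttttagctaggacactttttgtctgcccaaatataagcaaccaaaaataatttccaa
Rank 44, chrX:2057971-2058071, plus strand: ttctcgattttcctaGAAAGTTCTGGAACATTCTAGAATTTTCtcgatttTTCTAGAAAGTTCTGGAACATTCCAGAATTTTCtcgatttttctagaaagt
The sequences at ranks 1 and 3 are made of the same unit, which returned every 26 bp. The sequence at rank 2 also had a period of 26 bp. On the minus strand its unit holds agagtca and ggtgaa, as does the unit at ranks 1 and 3, while other bases differ. The sequences at ranks 5 and 44 had periods of 27 and 40 bp. All bases of these 5 sequences were masked as repeats in the reference, against 60.4% at rank 12. The median 31-base word of the window occurred 30 times in the nuclear genome at rank 1, 139 times at rank 2, 34 at rank 3, 10 at rank 5, 12 at rank 12 and 147 at rank 44. The number of places to which a read from such a repeat can be assigned was not tested against its signal.

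Signal at the strongest of them was far above the rest of X. The peak at rank 1, 188 bp wide and 6938 bp upstream of the nearest protein-coding 5′ end, that of Y7A5A.7, had a signal of 2218, with 1216 in one library and 1196 in the other. Rank 2, 1493 bp upstream of Y102F5A.1, had 644, with 426 and 247 in the libraries. Rank 3, 4020 bp upstream of Y7A5A.7, had 531, with 348 and 245. Both libraries were high at all 3, and the order of the libraries was the same. Rank 5, 2047 bp downstream of the 5′ end of C24H10.4, had 452 (288 and 139), and rank 12, 3797 bp upstream of R57.2, had 339 (192 and 167). The median over all 558 X peaks was 62.6. All 5 had an IDR of 1e-05, and none of the 5 was in the conservative list, the combined list or the list of either replicate. The authors derived these thresholded lists with 1 further file that the ranked lists did not use and whose content is not stated, so absence from a list is not a measure of signal or of reproducibility. By contrast, rank 44, 6197 bp downstream of the 5′ end of Y102A11A.1 (signal 225.5; 131 and 88.7 in the libraries), and rank 53, 3229 bp downstream of that of the F-box gene fbxa-190 (signal 212; 137 and 77.3), were in the conservative list. Both of these hold the heat shock unit runs, as do the X peaks at ranks 701, in an intron of M02E1.1, and 4609. Such runs were in 0.717% of X peak windows and 0.867% of autosomal ones, against 0.717% of windows 500 bp beside X peaks and 1.18% of those beside autosomal peaks. In windows tiled over X and over the autosomes the shares were 0.427% and 0.891%. Over all ranks the runs were thus no more frequent at peaks than beside them. At ranks 1 to 500 they were in 2 of 20 X peaks (10%), the repeats at ranks 44 and 53, and in 8 of 302 autosomal peaks (2.65%). At ranks 2501 to 5000 the shares were 0.299% and 0.469%.

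**Figure D1:**
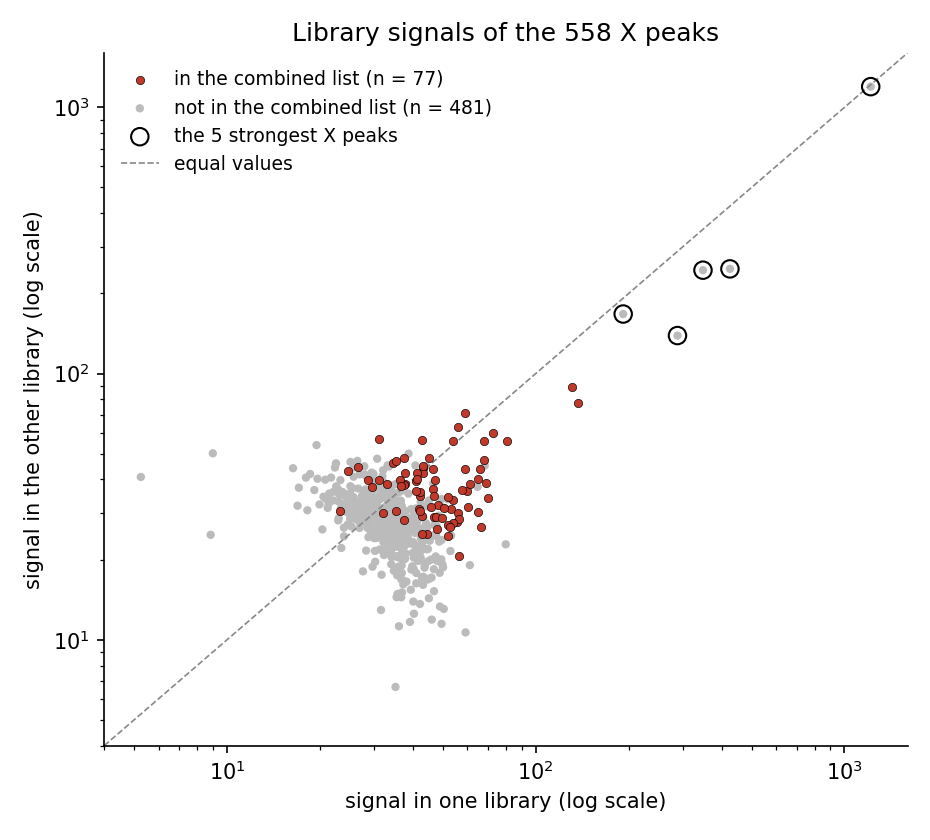
Signal of each of the 558 X peaks in one library (horizontal, log scale) against the other library (vertical, log scale). Red points are the 77 peaks in the combined list, grey points the 481 others, and black rings the 5 strongest, which lie far from the rest and are not in the list.

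Repeats were most frequent at the top ranks, and over all ranks their share was similar at X and autosomal peaks. A window was called repeated when its median 31-base word occurred at least 2 times in the genome. Of the 20 X peaks at ranks 1 to 500, 13 (65.0%) were repeated, against 81 of 302 autosomal peaks (26.8%). At ranks 2501 to 5000 the counts were 15 of 334 X peaks (4.49%) and 117 of 2131 autosomal peaks (5.49%). Over all ranks 45 X peaks (8.07%, 95% interval 5.94 to 10.6%) and 351 autosomal peaks (8.70%, 7.85 to 9.61%) were repeated, so the intervals overlap. Windows tiled over X were repeated less often than X peaks, at 5.32% (4.99 to 5.66%). The share was 7.975% (6.45 to 9.72%) in windows 500 bp beside X peaks and 8.92% (8.73 to 9.12%) in windows tiled over the autosomes. Tandem repeats had at least 80% of bases equal to the base 1 period away, over a stretch wider than the printed windows. They were found at 17 X peaks (3.05%, 1.79 to 4.83%) and 77 autosomal peaks (1.91%, 1.51 to 2.38%). The peaks at ranks 1 and 2 fell below this limit, at 76% and 77.8%, and were not counted. The 17 X peaks included 3 near the hexosaminidase gene hex-5, at ranks 586, 911 and 1016, each with a period of 25 bp and none in the combined list. Intervals here and below are exact binomial (Clopper-Pearson) ones over peaks and cover the counting of peaks only.

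Some of the strong X peaks held tRNA-like sequence. The words GTGGTTA and TCGGCCA, both from the A box region of tRNA genes, lie end to end when the complement of TCGGCCA is followed by GTGGTTA. This joined run was in 6 X peaks (1.08%, 0.396 to 2.33%) and 19 autosomal peaks (0.471%, 0.284 to 0.734%), in 1 of 17544 windows tiled over X, and in 0 of 1116 windows 500 bp to either side of X peaks. The windows at ranks 238 and 386 are shown because they are a clear case of tRNA-like sequence with no annotated tRNA gene. Capitals mark the joined run on either strand and, at rank 386, also the complement of the B box word GGTTCAA.
Rank 238, chrX:351554-351654, plus strand: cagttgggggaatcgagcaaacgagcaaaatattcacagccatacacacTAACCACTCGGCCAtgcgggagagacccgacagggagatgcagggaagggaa
Rank 386, chrX:3722708-3722808, plus strand: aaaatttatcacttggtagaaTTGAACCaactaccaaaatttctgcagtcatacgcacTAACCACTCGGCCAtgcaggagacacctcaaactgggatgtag
The peak at rank 238, 2015 bp upstream of sor-3, a gene that keeps Hox genes repressed, had a signal of 130.4, with 81.0 in one library and 55.8 in the other. Rank 386, 4816 bp upstream of the neuropeptide gene nlp-1, had 109 (69.1 and 38.7). By its median word, the window at rank 386 is in 13 copies and that at rank 238 in 1 copy. Those at ranks 635 (near fip-5), 829 (near F48F7.5) and 1159 (near mksr-1) had signals of 92.8, 85.0 and 77.0, and their windows are in 1, 10 and 2 copies. Of the 6 peaks 3 were of repeated sequence. All 6 were intergenic and in the combined list. X holds 16 occurrences of the joined run in all, 6 of them within 200 bp of a tRNA gene, and 6 of the other 10 were in X peak windows. On the autosomes 19 of 48 such occurrences were in peak windows. The joined run and the word GGTTCAA were added after the words at these peaks had been seen. A word from a standard B box, GGTTCGA, was in 7 X peaks (1.25%) and 75 autosomal peaks (1.86%), against 0.701% of windows tiled over X. Its X peaks included those at F02E8.4 and peb-1 and in introns of piki-1 and lin-14, named here after their values were seen.

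The core word of the dosage compensation recruitment motif, GCGCAGGG, was found at 10 of the 558 X peaks (1.79%, 0.863 to 3.27%) and at 8 of the 4036 autosomal peaks (0.198%, 0.0856 to 0.390%). It was in 6 of 17544 windows tiled over X (0.0342%), in 13 of 81739 tiled over the autosomes (0.0159%) and in 2 of 1116 windows beside X peaks (0.179%). The 8 letters in reverse order, GGGACGCG, were added afterwards as a word of the same composition. They were in 2 X peaks (0.358%, 0.0434 to 1.29%) and 8 autosomal peaks (0.198%). In tiled windows their shares were 0.0342% on X and 0.0232% on the autosomes, so the reversed word was also more frequent at peaks than in tiled windows. X holds 81 occurrences of GCGCAGGG, and 11 of them (13.6%, 6.98 to 23%) were in X peak windows. The autosomes hold 233, of which 8 (3.43%, 1.49 to 6.65%) were in autosomal peak windows. For the reversed word the counts were 2 of 82 on X (2.44%) and 8 of 220 on the autosomes (3.64%). X peaks thus held the word more often than autosomal peaks, with intervals that do not overlap, and no test was made because the word was listed with earlier results of these data known. The strongest of the 10 windows are shown in full, with the word in capitals.
Rank 351, chrX:1837849-1837949, plus strand: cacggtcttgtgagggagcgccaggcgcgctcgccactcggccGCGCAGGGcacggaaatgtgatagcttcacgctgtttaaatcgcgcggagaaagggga
Rank 618, chrX:6296501-6296601, plus strand: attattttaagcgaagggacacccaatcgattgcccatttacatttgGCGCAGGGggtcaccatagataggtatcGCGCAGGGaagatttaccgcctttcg
The peak at rank 351 is intergenic, 1562 bp downstream of the 5′ end of WBGene00020828, and its summit was 4 bp from the centre of the word. Its signal was 114, with 54.02 and 55.9 in the libraries. The peak at rank 618 lies in an intron of mom-1, which acts in Wnt secretion, and holds the word at 2 places, at the summit and 28 bp from it, with a signal of 93.9 (44.9 and 48.3). The libraries differed little at both. The other 8 peaks are shown by 30 bases on the strand that reads GCGCAGGG, to let the bases around the word be compared.
Rank 1083, chrX:8811094-8811123, minus strand: gaacacgcgacGCGCAGGGagagggacgca
Rank 1142, chrX:12618664-12618693, plus strand: atgaactgtcgGCGCAGGGtgttcggggac
Rank 1387, chrX:5429579-5429608, plus strand: cattaaatttaGCGCAGGGaggacgccgtt
Rank 1785, chrX:16682161-16682190, minus strand: aagaaaacatcGCGCAGGGaacatcaaatt
Rank 2181, chrX:11094215-11094244, minus strand: gggaaccattcGCGCAGGGacacctcactg
Rank 2394, chrX:4395604-4395633, plus strand: aaaggagacaaGCGCAGGGagaactggtgg
Rank 2791, chrX:806663-806692, plus strand: gtgcgattatcGCGCAGGGgtgtttgttgc
Rank 4222, chrX:12363028-12363057, minus strand: atgagttatagGCGCAGGGtcttgaggata
These peaks lay by R04E5.9 (rank 1083), R09A8.2 (1142), in a coding exon of the polyketide synthase gene pks-1 (1387), and near F22H10.2 (1785), W02H3.3 (2181), the clathrin adaptor gene dpy-23 (2394), gtr-1 (2791) and F19H6.5 (4222). Signals over the 10 ran from 58.2 through a median of 71.8 to 114. In one library they ran from 23.7 through 42.3 to 54.02 and in the other from 18.7 through 37.2 to 55.9. Of the 10, 2 were in a promoter window, 4 were in the combined list and 0 were repeated. Their median rank was 1586, against 2914 for all X peaks. The word was in 3.57% of X peaks when 2500 peaks were taken by signal and in 0.805% when 10000 were taken, against 0.262% and 0.120% of autosomal peaks.

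**Figure D2:**
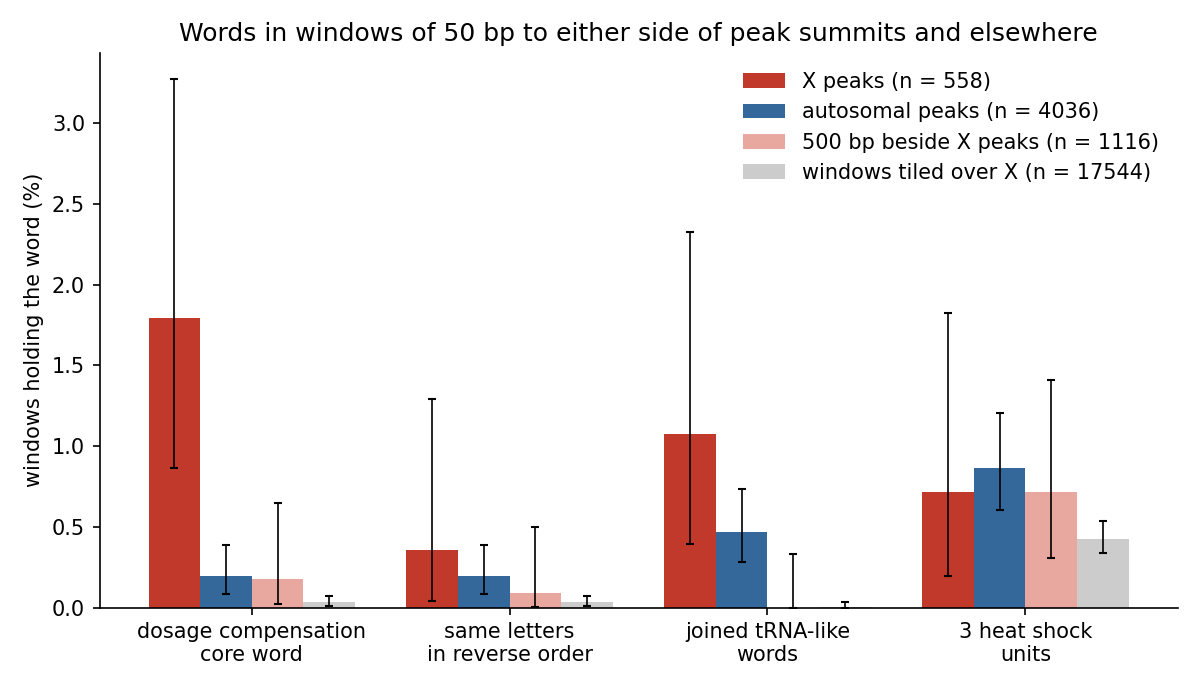
Share of windows of 50 bp to either side of a centre (%) that hold each word, for X peaks, autosomal peaks, windows 500 bp beside X peaks and windows tiled over X. Bars are shares and lines exact binomial 95% intervals over windows. The dosage compensation core word is at 1.79% of X peaks and 0.198% of autosomal peaks, while the same letters in reverse order are at 0.358% and 0.198%.

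The other words were at similar shares of X peaks and autosomal peaks. TCGGCCA was in 16 X peaks (2.87%) and 127 autosomal peaks (3.15%), CACGTG, the E-box of basic helix-loop-helix factors, in 15 (2.69%) and 117 (2.90%), and GAGAGAG in 17 (3.05%) and 119 (2.95%). All 3 were below these shares in windows tiled over X, at 0.519%, 1.29% and 1.20%. In windows tiled over the autosomes they were at 0.859%, 1.85% and 1.44%, so the shares away from peaks were lower on X. CACGTG was at the peak of rank 538, 1707 bp downstream of the 5′ end of mdl-1, which itself encodes a factor that binds E-boxes. AACCACT, which overlaps the complement of GTGGTTA, was in 9 X peaks (1.61%) and GTGGTTA in 8 (1.43%). TATAAA was at 5.20% of X peaks and 5.53% of autosomal peaks, below the 12.2% of windows tiled over X. Windows at X peaks had a median GC content of 47.5%, against 45.5% at autosomal peaks, 35.6% beside X peaks and 34.7% in windows tiled over X. The part of base composition in these word shares was not tested apart from the reversed word.

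X peaks were in promoters less often than autosomal peaks. A promoter window reached from 1000 bp before to 500 bp after the 5′ end of each annotated protein-coding transcript. Such windows held 165 of 558 X summits (29.6%, 25.8 to 33.55%) and 1660 of 4036 autosomal summits (41.1%, 39.6 to 42.7%), a difference of -11.6 percentage points (odds ratio 0.601, two-sided Fisher's exact test, adjusted p = 7.84e-07 over 6 classes). Promoter windows cover 26.8% of the bases of X and 32.9% of those of the autosomes, so the share of peaks was 1.10 times that of bases on X and 1.25 times on the autosomes. Each autosome alone had a higher share, between 39.04% on V and 43.6% on IV. The median distance of a summit to the nearest protein-coding 5′ end was 1554.5 bp on X and 981 bp on the autosomes. Peaks are not replicates, and neighbouring ones may share a source, so these p-values measure the counting of peaks and not the spread between animals. In the ranked list of replicate 1 alone the difference was -11.4 points and in that of replicate 2 alone -10.5 points.

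**Figure D3:**
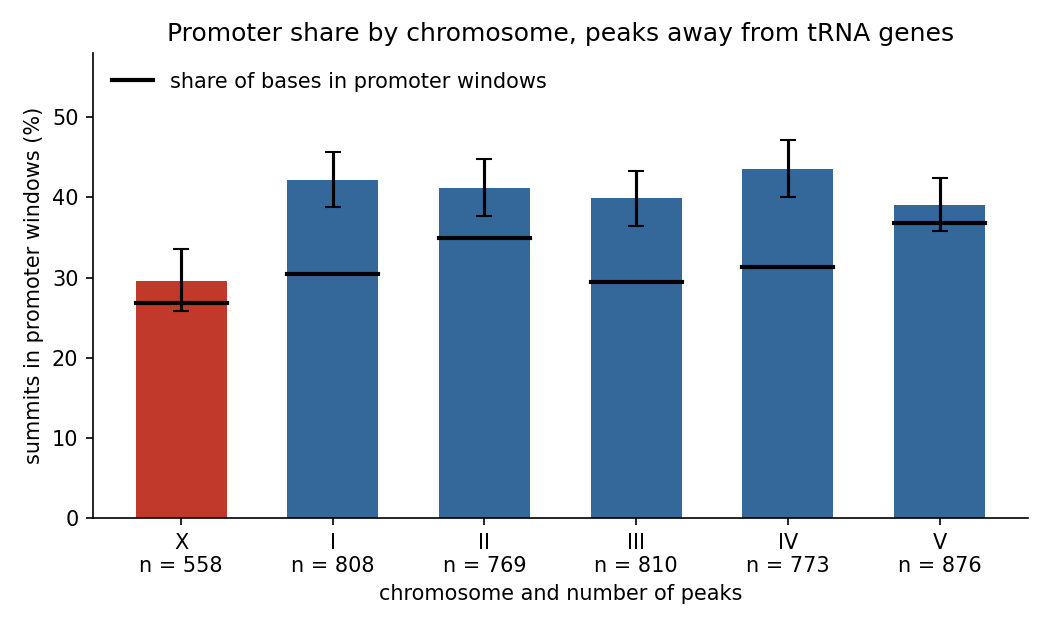
Share of summits in promoter windows (%) by chromosome, with exact binomial 95% intervals over peaks, and the share of the bases of each chromosome in promoter windows as black lines. X is at 29.6%, and the autosomes are between 39.04% and 43.6%.

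A class of small noncoding RNA genes was at a smaller share of X peaks than of autosomal peaks. Small nucleolar RNA (snoRNA) genes, whose RNAs direct chemical changes of other RNAs, small nuclear RNA (snRNA) genes, which serve splicing, ribosomal RNA genes and tRNA pseudogenes were within 200 bp of 4 X summits (0.717%, 0.196 to 1.825%) and 138 autosomal summits (3.42%, 2.88 to 4.03%). The odds ratio was 0.204 (two-sided Fisher's exact test, adjusted p = 0.000356). X also carries fewer of these bases, 0.185% against 0.390%, so that the share of peaks was 3.87 times that of bases on X and 8.77 times on the autosomes. MicroRNA genes are not in the class. X has 33 of the snoRNA genes and 3 of the snRNA genes, against 313 and 126 on the autosomes. The X peaks were at the snoRNA genes C53B7.8 (rank 210, signal 137, with 72.9 and 59.9 in the libraries) and M163.14 (rank 1463, signal 73.1), and at tRNA pseudogenes at ranks 862 and 3210. The members of the class differed: snoRNA genes were near 0.358% of X summits and 2.18% of autosomal ones. For tRNA pseudogenes the shares were alike, at 0.358% and 0.372%. No snRNA gene was near an X summit, against 35 autosomal summits near one, and the interval on 0 of 558 peaks reaches 0.659%. The peak at C53B7.8 was 1 of 5 X peaks in the lists of both replicates, as were those at fbxa-190, T13C5.6 and sor-3.

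Among the other annotation classes, X peaks were more often intergenic and less often in UTRs. Intergenic summits made up 42.3% on X and 36.5% on the autosomes (two-sided Fisher's exact test, adjusted p = 0.0132), where intergenic bases are 44.5% and 35.8% of the sequence. The intergenic share of peaks was thus 0.951 times that of bases on X and 1.02 times on the autosomes. UTR summits made up 3.76% on X and 7.19% on the autosomes (two-sided Fisher's exact test, adjusted p = 0.00321), with base shares of 4.85% and 4.72%. Coding exons held 29.2% and 32.5% of summits (two-sided Fisher's exact test, adjusted p = 0.146), over base shares of 19.97% and 25.6%, and introns held 24.7% and 23.8% (adjusted p = 0.634 by the same exact test), over base shares of 30.7% and 33.8%. The coding exon difference of -3.30 points was called, in the same direction, with 10000 peaks taken (-4.72 points, adjusted p = 0.00173 by Fisher's exact test) and with a tRNA distance of 0 bp (-4.725 points, adjusted p = 0.0248 by the same exact test). In the ranked list of replicate 2 alone, neither the intergenic difference of 2.18 points nor the UTR difference of -0.966 points was called (two-sided Fisher's exact test, adjusted p = 0.489 for both). With 2500 peaks taken neither was called, at 7.80 points for intergenic summits (adjusted p = 0.0549 by Fisher's exact test) and -2.31 points for UTR summits (adjusted p = 0.336 by the same exact test). The remaining annotated noncoding RNA genes, a mixed class, were within 200 bp of 77 X summits (13.8%) and 254 autosomal ones (6.29%), and their bases with that margin make up 6.24% of X and 2.92% of the autosomes. Among them was tts-1, a long noncoding RNA gene known from long-lived worms, at rank 406 (signal 108; 68.1 and 47.4 in the libraries). C14F11.14 was at rank 205, C30E1.9 at ranks 343 and 678, and R03E9.10 at rank 538. MicroRNA genes were near 3 X summits, those of mir-4812 in an intron of piki-1 (rank 763, signal 87.3), mir-54 (rank 1091, signal 78.03) and mir-800 (rank 1431, signal 73.4), or 0.538% of X peaks, and near 9 autosomal ones, or 0.223%. Their bases with that margin make up 0.182% of X and 0.104% of the autosomes.

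**Figure D4:**
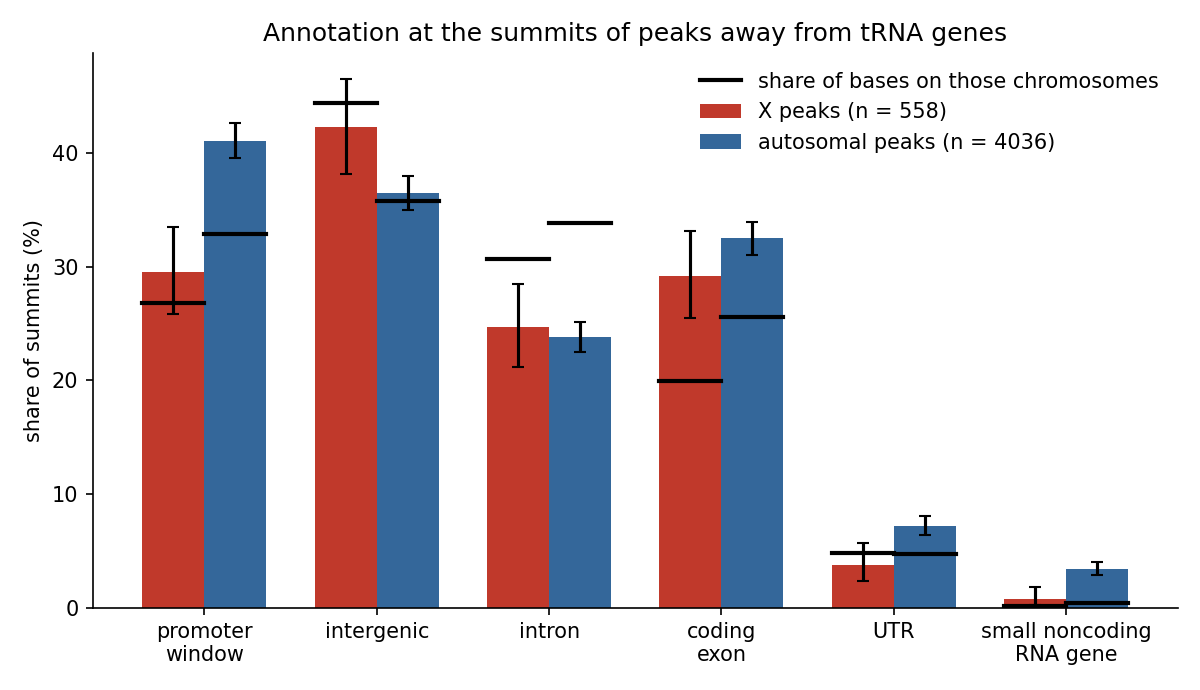
Share of summits (%) in each annotation class for X peaks and autosomal peaks, with exact binomial 95% intervals over peaks, and the share of bases of X or of the autosomes in the class as black lines. Promoter windows and small noncoding RNA genes overlap the other 4 classes. The X bars are lower for promoter windows (29.6% against 41.1%), UTRs (3.76% against 7.19%) and small noncoding RNA genes (0.717% against 3.42%) and higher for intergenic sequence (42.3% against 36.5%).

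X peaks were fewer per length and lower in rank than autosomal ones. X had 31.5 peaks per Mb, and the autosomes between 41.9 on V and 58.8 on III. X makes up 17.7% of the nuclear sequence and 13.7% of protein-coding genes, against 12.15% of the peaks. Per 100 protein-coding genes X was not the lowest, with 20.4 peaks, as the autosomes had between 17.5 on V and 30.7 on III. The median rank was 2914 on X and 2631.5 on the autosomes, and the median signal was 62.6 and 63.97. X peaks were 20 of 322 peaks at ranks 1 to 500 (6.21%, 3.835 to 9.43%), and at most 15.99% in any 500 ranks, at ranks 4001 to 4500. Promoter windows held 2 of the 20 X peaks at ranks 1 to 500, those of T13C5.6 and F02E8.4, or 10%, against 47.7% of autosomal peaks there. Over ranks 1 to 2500 the promoter shares were 30.8% on X and 44.3% on the autosomes, and in the lower ranks of the 5000 they were 28.7% and 38.3%. At the edge of the ranking the last X peaks taken were near bcat-1 (rank 4981, signal 56.37), pgp-4 (4992, 56.36) and the yolk protein gene vit-5 (4993, 56.36). The first X peaks not taken were near crb-3 (rank 5003, signal 56.33), D1079.1 (5008, 56.32) and F13D11.3 (5018, 56.31).

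**Figure D5:**
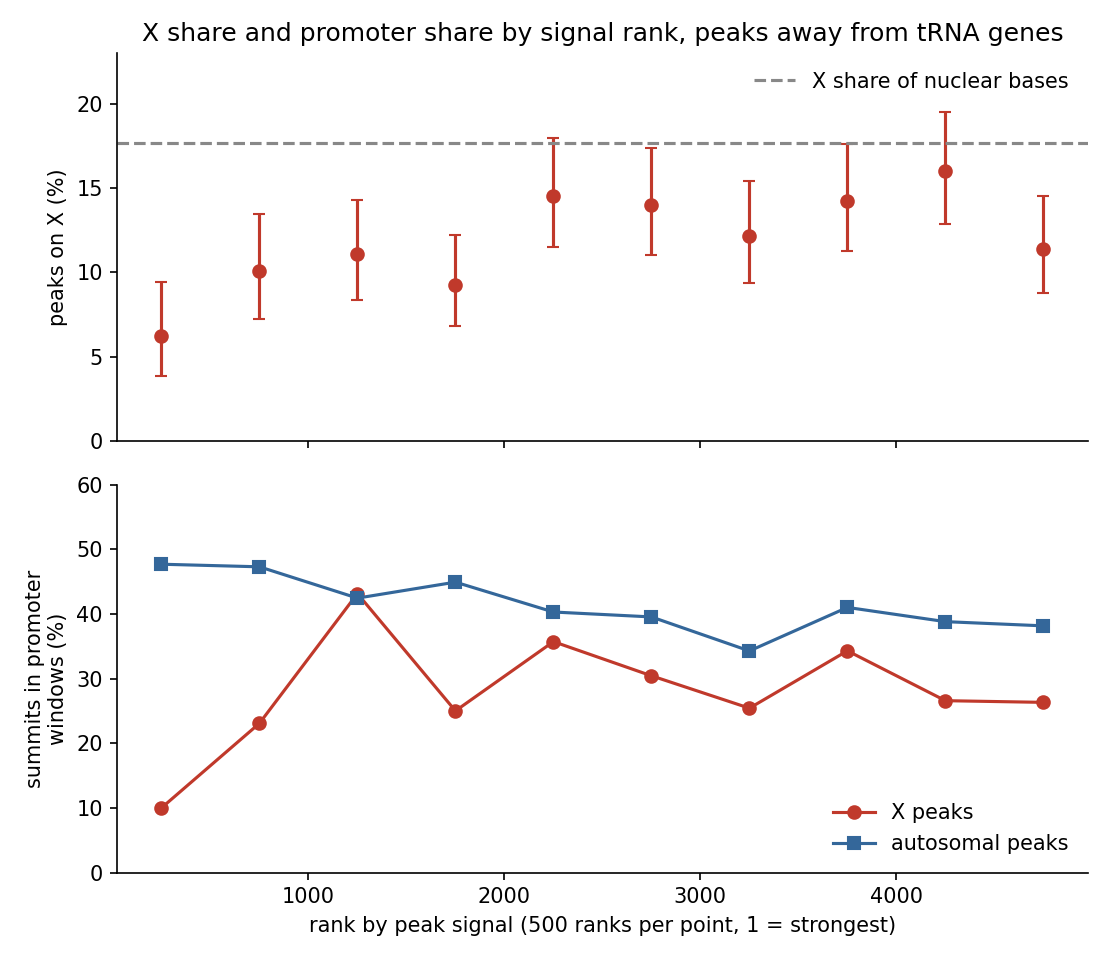
Top, share of peaks away from tRNA genes that lie on X (%) in each 500 ranks, with exact binomial 95% intervals over peaks and the X share of nuclear bases as a dashed line. Bottom, share of summits in promoter windows (%) for X peaks and autosomal peaks in the same ranks, where the X share is lowest, at 10%, in the first 500 ranks.

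Fewer X peaks than autosomal peaks were in the lists the authors had thresholded. The combined list held 77 X peaks (13.8%, 11.1 to 16.9%) and 920 autosomal ones (22.8%, 21.5 to 24.1%), against 1.31% of all peaks of the ranked comparison. The conservative list held 57 (10.2%) and 720 (17.8%). The list of replicate 1 held 20 X peaks and 300 autosomal ones, and that of replicate 2 held 9 and 179. An IDR of 0.05 or lower was found for 263 X peaks (47.1%, 42.9 to 51.4%) and 2077 autosomal peaks (51.5%, 49.9 to 53.01%), against 2.91% of all peaks of the ranked comparison. At an IDR of 0.01 or lower, 19 of 67 X peaks (28.4%, 18.01 to 40.7%) and 137 of 768 autosomal peaks (17.8%, 15.2 to 20.7%) were not in the combined list. One library had the higher signal at 370 X peaks (66.3%) and at 2867 autosomal peaks (71.0%). Since the ranking chose all these peaks for high signal, the shares are read only between X and the autosomes. Shares in the combined list were far lower at lower ranks, and X peaks ranked lower (median 2914 against 2631.5). At ranks 1 to 500 the list held 65% of X peaks and 87.1% of autosomal peaks. The shares were 71.8% and 85.4% at ranks 501 to 1000, and 49.02% and 50.7% at ranks 1001 to 1500. Only at ranks 4001 to 4500 was the X share higher, at 1.27% against 0.482%. The part of rank in the difference over all ranks was not tested.

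The promoter windows of 165 of the 2731 protein-coding genes of X (6.04%) held an X peak summit, against 1872 of 17242 autosomal genes (10.9%). The strongest, chosen after their values were seen, were T13C5.6 (signal 138; 59.0 and 71.1 in the libraries, summit 149 bp upstream), F02E8.4 (signal 112.5; 65.8 and 43.8, 772 bp upstream) and ZK816.3 (signal 96.2; 61.2 and 38.4, 360 bp upstream). They were followed by ftt-2, a signalling adaptor gene with peaks at ranks 619 and 2674, by peb-1, which encodes a DNA-binding protein of the pharynx (signal 88.2; 53.1 and 31.1), by K09F5.6 (signal 87.8; 37.5 and 48.4), by the yolk protein gene vit-5 (signal 85.4) and by atf-6, a transcription factor gene of the response to misfolded protein in the endoplasmic reticulum (signal 85.1; 46.4 and 43.8). No X gene had 3 or more summits in its windows, and 10 had 2, among them the filamin gene fln-2 and the neuropeptide gene nlp-76.

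Peaks lay over 2 of the yolk protein genes. Vitellogenins are made in the intestine of adult hermaphrodites and taken up by oocytes, and X carries 5 of the 6 genes. The promoter windows of 2 of the 5 held a summit, against 0 of 1 on the autosomes. Over all protein-coding genes the shares were 6.04% on X and 10.9% on the autosomes. The vit-5 summit was 169 bp downstream of the 5′ end (rank 811, signal 85.4, with 60.1 and 31.4 in the libraries, IDR 0.00584), and that of vit-2 was 297 bp downstream (rank 1094, signal 78.02, with 37.5 and 38.02, IDR 0.00839). Both are in coding exons and in the combined list, and both libraries were alike at vit-2 but not at vit-5. The body of vit-2 held 4 summits, at ranks 1094, 1527, 3041 and 3958, all in coding exons, and that of vit-5 held 2, at ranks 811 and 4993. No X gene held more than 4 summits, a count that takes no account of gene length. The vit-2 window at rank 1527 was in 2 copies and the vit-5 window at rank 811 in 3 copies by its median 31-base word, so reads at both may belong to other places, and the other windows were in 1 copy. Of other genes, chosen after their values were seen, ZC8.6 also held 4, and lin-14, a regulator of larval timing, unk-1, H18N23.2, F54G2.1 and lfi-1, whose summits also lie in ZC8.6, held 3 each. In unk-1 the signals were 83.8, 79.1 and 76.4, all at intronic summits.

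Neuropeptide and insulin genes were marked at 6 of 34 on X and at 7 of 106 on the autosomes, beside 165 of 2731 and 1872 of 17242 protein-coding genes. The X members were nlp-57 (signal 66.9; 49.9 and 19.2 in the libraries), the insulin-like gene ins-39 (66.3; 49.4 and 20.05), nlp-76, flp-28, flp-26 and nlp-45, with signals of 56.5 to 66.9, and none was in the combined list. In both named in full, one library was more than 2 times as high as the other. Muscle structure genes were marked at 2 of 13 on X, the actin gene act-4 (signal 67.2) and pat-9, a muscle transcription factor gene (60.8), and at 6 of 43 on the autosomes. Homeobox genes were marked at 2 of 25 on X, ceh-21 (63.9) and lim-4 (57.9), which specifies olfactory neurons, and at 3 of 64 on the autosomes. Neuron function genes were marked at 1 of 42 on X, through unc-3 (66.1), a terminal selector of motor neurons, and at 9 of 102 on the autosomes. Chemoreceptor genes were marked at 3 of 34 on X, among them srg-36 and srg-37, receptors for pheromones, which share 1 peak (signal 65.1; 45.1 and 14.3), and at 41 of 1331 on the autosomes.

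Single genes of further families were marked: the ribosomal protein gene rpl-11.2 (1 of 2 on X and 31 of 78 on the autosomes), the nuclear hormone receptor gene nhr-45 (1 of 23 and 13 of 246), the chaperone gene dnj-14 (1 of 5 and 16 of 54) and the F-box gene fbxb-58 (1 of 17 and 14 of 305). At rpl-11.2 the peak (rank 1140, signal 77.2) had 19.5 in one library and 53.9 in the other, and an IDR of 0.279, and the long intergenic RNA gene linc-78 lies within 200 bp of it. No X gene was marked among 30 collagens (14 of 144 on the autosomes), 15 chromatin regulators (15 of 56), 4 histones (20 of 68), 3 translation factors and aminoacyl-tRNA synthetases (19 of 68), 2 germline and meiosis genes (23 of 59), 6 sex determination and dosage compensation genes (2 of 15), 9 vulval signalling genes (2 of 16), 7 cytochrome P450 genes (5 of 67), 4 heterochronic genes (3 of 8), 3 C-type lectins (15 of 237) and 3 small RNA pathway genes (7 of 42). Over all protein-coding genes the marked shares were 6.04% on X and 10.9% on the autosomes. The lists hold few X genes, and a count of 0 of so few sets no narrow limit. No proteasome gene of the list is on X, and 9 of 33 on the autosomes were marked.

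Along X the peaks were spread over the whole chromosome, with fewer in the middle. The left, middle and right parts of equal length held 214, 152 and 192 X peaks, or 24.6, 15.6 and 21.7 per 100 protein-coding genes. The autosomal peaks, added over the 5 chromosomes, were 1383, 1307 and 1346, or 25.8, 19.9 and 25.4 per 100 genes. The tRNA genes of X lay otherwise, with 51, 107 and 118 in its left, middle and right parts. By 1 Mb, the X peaks ran from 16 between 13 and 14 Mb, where 30 tRNA genes lie, to 46 between 16 and 17 Mb, where 32 do. The median gap between neighbouring summits was 20756 bp on X and 11677 bp on the autosomes. The widest gap on X ran 229452 bp, from the summit at spp-14 at 7726077 to 7955529, over 32 protein-coding genes. This gap held 185 peaks of the full ranked list and 4 of the peaks left out at tRNA genes. The densest 200 kb, 3698962 to 3898961, held 16 X peaks over 26 protein-coding genes. They lay near nlp-1, fkh-9, a forkhead factor gene, lim-4, ceh-18, a POU homeobox gene needed for oocyte arrest, abu-10, C01C4.3, F47F2.1 and 4 other genes, and 1 of them, that at nlp-1, was in the first 500 ranks.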

How the data were processed

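Binding of tagged ZTF-25 was mapped in 2 libraries of 1 group. Per the deposited README texts, the authors derived 8 peak lists on ce11 from alignments and a control file, with 1 further file of unstated content for the 4 thresholded lists; no aligner or peak caller is given in the sources used here. The signal of a peak, deposited by the authors, has no stated scale, and was used only to rank and describe peaks within a list. The IDR was deposited as a −log10 value and turned back into an IDR. The 2 library signals in the ranked list carry no replicate number. Depth is unknown, and intervals cover the counting of peaks or windows only.

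The 5000 peaks of highest signal were taken, ties by file order. Positions are 1-based. Genes came from Ensembl release 115 of WBcel235, which ce11 also names, and both sequence and tRNA pseudogenes from RefSeq. A peak was counted in a list when its summit lay inside a listed peak. Annotation classes were compared with two-sided Fisher's exact tests (scipy 1.17.1) with Benjamini-Hochberg adjustment over 6 classes, called at 0.05, and this was tested on simulated peaks. Words were searched on both strands 50 bp to either side of summits, beside windows 500 bp away and every 10th window tiled over the chromosomes. Named genes are those nearest the 15 strongest X peaks, up to 2 marked genes per gene list, genes with 3 or more summits in their windows, noncoding RNA genes at the 8 strongest such peaks and the peaks at the rank limit; others are said to have been chosen afterwards or hold a described sequence. Peaks and 22 gene lists were chosen with earlier results of these data known. The sequence and values of 1 X peak are not reported here.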

Additional observations from a re-analysis of the deposited data

How the results depend on the processing

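The promoter difference between X and autosomal peaks kept its direction and its call under all 12 alternatives, from -13.4 to -7.23 percentage points, and the difference at small noncoding RNA genes under all 8. With 2500 peaks taken, 2 annotation classes were called in place of 4, the intergenic and UTR classes losing their calls, X held 10.5% of the peaks away from tRNA genes, 33.5% of X peaks were in the combined list, 72 X genes were marked, and GCGCAGGG was in 3.57% of X peaks. Coding exons were called as well with 10000 peaks or a tRNA distance of 0 bp. With 10000 peaks taken, the last 3 values were 6.28%, 352 genes and 0.805%. With tRNA distance 0 bp, 17.98% of X peaks were in the combined list. An IDR of at most 0.1 in place of the list held 74.0% of X peaks and 75.1% of autosomal peaks, so the shares were close. An IDR of at most 0.01 held 12.01% and 19.03%. A promoter window of 500 bp upstream to 100 bp downstream marked 85 X genes. The intron difference, never called, turned to -1.72 points with 2500 peaks, and was -0.0435 to 0.611 points when either replicate was left out. Leaving out either replicate gave -11.4 to -10.5 points for promoters, -2.15 to -1.96 points at small noncoding RNA genes, 2 to 4 classes called, 12.2 to 12.9% of peaks on X, 10.4 to 12.3% of X peaks in the combined list, 155 to 180 marked X genes and GCGCAGGG in 1.16 to 1.60% of X peaks. Without members of repeated sequence, an alternative chosen after seeing the data like those for the word, the promoter difference was -11.9 points. The cause was not tested. No paired analysis was possible because the series has 1 group. Depth limits could not be set, since no file holds counts.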
